A study of Mus musculus with 12 samples.

Results

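The integrated stress response is the cell's common answer to a shortage of amino acids, misfolded protein, viral RNA or lack of haem, and its transcripts were followed here together with genes that make and carry amino acids. The members were chosen by symbol from 36 listed genes of the ATF4 pathway and of amino acid synthesis and transport, out of the 54838 gene rows of the ileum count table. Of these, 35 had a row (Fgf15l did not), and 33 had enough reads to be tested among 15938 genes. Slc7a3 had 0 to 10 reads and Gdf15 2 to 9 reads per library, which was too few.

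RNA was sequenced from the washed ileum of 12 C57BL/6J mice, in 4 groups of 3. The mice drank normal water or water with 25 mM ZnSO4 for 7 days, and were then injected with 200 µg of the glucocorticoid dexamethasone (Dex) in PBS, or with PBS alone. The ileum was taken 2 h after the injection. The groups are called water + PBS, water + Dex, ZnSO4 + PBS and ZnSO4 + Dex. The mice were wild type and, by the methods, female and young adult, and every mouse received an injection, so no group was left unhandled. Oral zinc has long been known to protect mice against TNF, and the comparisons ask what zinc and a glucocorticoid each do to transcripts of the small intestine, and whether one changes the effect of the other.

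As background, stress-activated kinases phosphorylate the translation factor eIF2, which lowers protein synthesis in general but lets the mRNA of the transcription factor ATF4 be translated. ATF4 then acts in pairs with C/EBP proteins on genes for amino acid synthesis, amino acid carriers and aminoacyl-tRNA synthetases, and on feedback genes that end the response. In the small intestine the same carriers and enzymes serve the rapid renewal of the epithelium and the heavy secretory work of Paneth, goblet and plasma cells.

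ATF4 and C/EBP proteins are known to bind a composite element with the letters TGATGNAA. These letters were searched on both strands of RefSeq promoters (build GRCm38.p6, 250 bases before a start to 50 after it). Of the 30 members with such a promoter, 8 (26.7%) held the letters, against 1219 of 27025 genes (4.51%). Among 13 aminoacyl-tRNA synthetase genes with a promoter, 5 (38.5%) held them. The windows of the 8 members and of 2 synthetase genes, Iars and Tars, are shown because they hold these letters. Iars and Tars fell with ZnSO4 in PBS mice. Aars also holds the letters and fell, and Gars and Yars hold them and did not pass the test there, and these are not shown. Binding to the letters was not measured. Capitals mark the element and each window is written 5′ to 3′ on the strand named.
Asns, chr6:7693214-7693243, - strand: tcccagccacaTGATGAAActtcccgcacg
Chac1, chr2:119351038-119351067, - strand: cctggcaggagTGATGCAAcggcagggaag
Trib3, chr2:152344028-152344057, + strand: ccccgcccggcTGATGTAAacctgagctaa
Nupr1, chr7:126625562-126625591, + strand: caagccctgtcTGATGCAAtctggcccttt
Pck2, chr14:55540152-55540181, - strand: ctgtaagatacTGATGTAActttgaaggct
Pycr1, chr11:120643833-120643862, - strand: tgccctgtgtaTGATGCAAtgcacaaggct
Slc1a4, chr11:20332699-20332728, + strand: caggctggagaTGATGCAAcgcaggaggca
Vldlr, chr19:27216809-27216838, - strand: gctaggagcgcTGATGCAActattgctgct
Iars, chr13:49682126-49682155, - strand: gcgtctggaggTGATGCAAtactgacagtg
Tars, chr15:11399655-11399684, + strand: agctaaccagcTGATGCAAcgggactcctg
The element lay 23 bases before the start of Asns, 193 before that of Chac1, 110 before Nupr1, 103 before both Pycr1 and Pck2, 4 before Slc1a4, 14 after the start of Trib3 and 200 before an alternative start of Vldlr. The core letters of a glucocorticoid element, ACANNNTGT, were found in the promoter of 1 of the 30 members (Ddr2), against 7.90% of the 27025 genes. A match describes letters only. Eif4ebp1, Cth, Slc7a3, Slc7a5 and Slc1a5 were not matched to a promoter.

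Between 10760132 and 11827487 reads were counted on genes in each library, with a median of 11388606. Values are normalised counts, that is reads scaled to the mean effective library size of 11377723. Both treatments had left their known marks: the zinc-induced metallothionein Mt1 had 11971 to 27940.0 normalised counts in the ZnSO4 mice and 490.3 to 1376 in the water mice, and the Dex-induced Fkbp5 had 10263 to 12396 in the Dex mice and 950.0 to 1222 in the PBS mice. Markers of enterocytes, Paneth cells and goblet cells, the cells that define ileal epithelium, were abundant in every library, and those of the pancreas were near 0. The immune and muscle content of the pieces varied. The summed markers of B cells ran from 13.1 to 680.0 CPM (reads scaled to one common library total) across libraries, and water + PBS mouse 2 was the highest. The sums were 31.5 to 680.0 in the water + PBS mice and 16.7 to 247 in the water + Dex mice. In the ZnSO4 + PBS mice they were 13.1 to 510, and in the ZnSO4 + Dex mice 13.8 to 75.7. All groups overlapped, but each of the 9 markers was lower with both treatments than with neither (median log2 fold change -3.39, none passing the test given below). Plasma cell markers summed to 2635, 2586 and 2725 CPM in the water + PBS mice, 2104, 2748 and 2373 in the water + Dex mice, 2350.4, 2010.0 and 1630.4 in the ZnSO4 + PBS mice and 1639, 2225 and 1720.3 in the ZnSO4 + Dex mice, so the water + PBS mice were above all ZnSO4 mice. In a whole piece of ileum, fewer cells of a type and less RNA per cell cannot be told apart.

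The members differed widely in level. Per kilobase of exon, Atf4 was the most abundant, with a mean of 832 normalised counts over the 12 libraries, followed by Slc3a2 (520.0), Cth (315), Aldh18a1 (268) and Cebpg (246). Chac1 (13.0), Stc2 (14.6), Trib3 (14.8) and Vldlr (18.3) were the lowest of those tested.

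The members moved in both directions, so that their median stayed near that of all genes while the share of them that changed was above the share of all genes in 4 of 5 comparisons. A gene is called changed at a Benjamini-Hochberg adjusted p under 0.05 over the 15938 genes tested (edgeR's quasi-likelihood test), and log2 fold changes are given ± SE. With ZnSO4 in PBS mice 1 member rose and 5 fell, while 2.11% of all genes tested rose and 2.54% fell. With Dex in water mice 4 members rose and 5 fell, while 5.41% of all genes rose and 4.51% fell. ZnSO4 in Dex mice raised 1 member and lowered 0, against 1.83% and 2.54% of all genes (DESeq2 also called 0 lowered). There, 8 of the 33 members had an unadjusted p under 0.05 in either direction, as had 3048 of the 15938 genes. Dex in ZnSO4 mice raised 4 members and lowered 3, against 6.65% and 7.08%. In mice given both treatments, compared with mice given neither, 8 members rose and 9 fell, against 11.5% and 11.9%. In these 5 comparisons the members changed in either direction were 18.2%, 27.3%, 3.03%, 21.2% and 51.5% of the 33, against 4.66%, 9.93%, 4.37%, 13.7% and 23.3% of all genes, and the members were listed with earlier results of these data known. The median log2 fold change of the 33 members was -0.09, -0.09, -0.01, 0.09 and -0.08 in these 5 comparisons, and that of all genes lay between -0.01 and 0.01. With a log2 fold change above 0.8 in size as well, the study's own limit, the counts were 0 raised and 1 lowered, 3 and 1, 0 and 0, 4 and 0, and 3 and 3. Over all 15938 genes they were 119 and 152, 444 and 261, 111 and 192, 543 and 383, and 813 and 727. The 3 comparisons made against the water + PBS mice share those control libraries. An exact permutation test of 3 mice against 3 cannot give a p below 0.1, so each call rests on the spread that edgeR estimates over all genes, and on 3 mice per group.

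**Figure D1:**
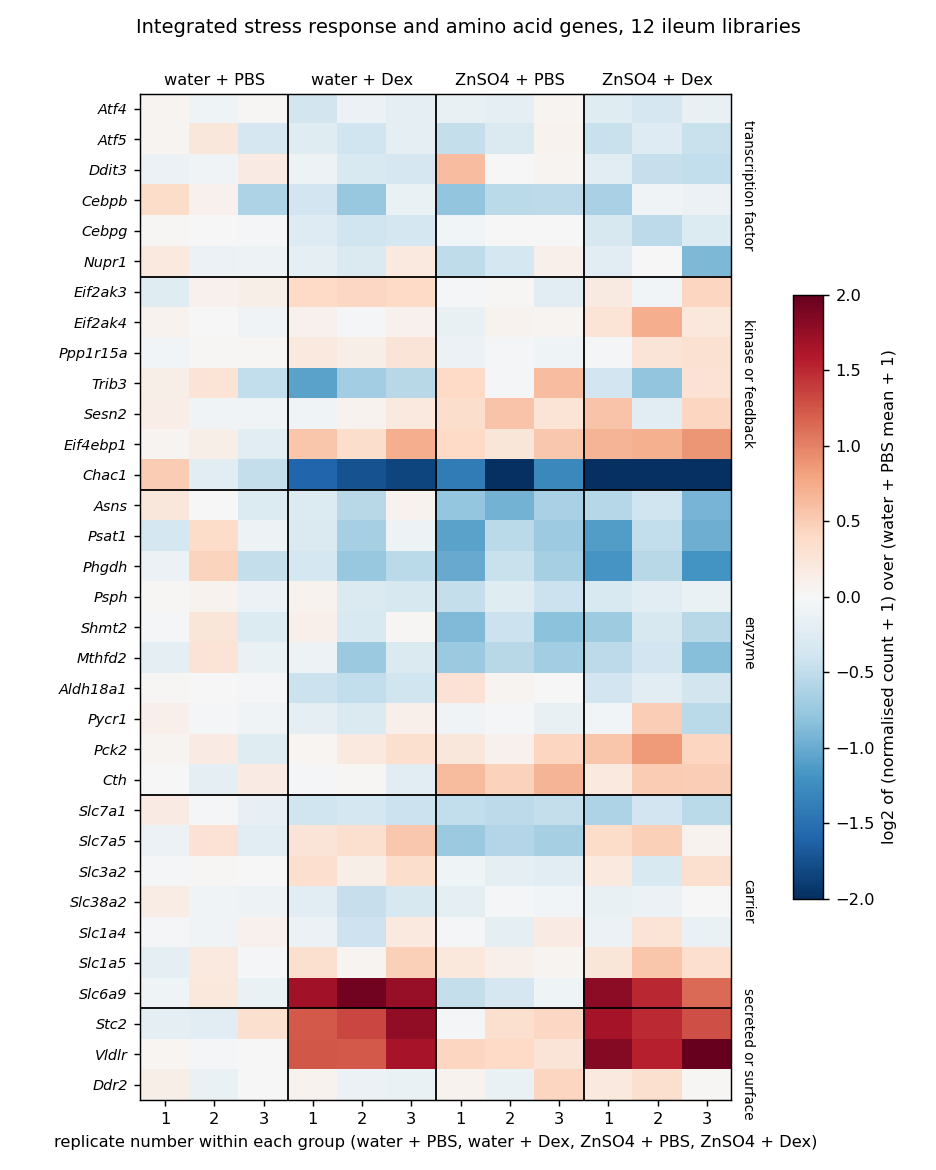
Each cell is 1 mouse and 1 of the 33 tested members, coloured by the log2 ratio of its normalised count (plus 1) to the water + PBS mean (plus 1), with the colour scale ending at -2 and 2. Slc6a9, Stc2 and Vldlr were high in all 6 Dex mice, Chac1 was low in all 9 treated mice, and Asns and Shmt2 were below the water + PBS mice in all 6 ZnSO4 mice.

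Of the transcription factors, Cebpg fell with Dex in both settings, Ddit3 fell with Dex in ZnSO4 mice, and Atf4 was called in no comparison. Atf4 itself had 2155 ± 107 normalised counts (SD, n = 3) in the water + PBS mice, 1842 ± 158 in the water + Dex mice, 2018 ± 195 in the ZnSO4 + PBS mice and 1831 ± 121 in the ZnSO4 + Dex mice. It passed the test in none of the 5 comparisons (adjusted p from 0.0859 to 0.971), although its lowest water + PBS mouse (2037) was above every Dex mouse. ATF4 is controlled mainly by translation, which these counts do not measure. Cebpg, a C/EBP protein that pairs with ATF4, had 1584, 1557 and 1532 in the water + PBS mice, 1298, 1184 and 1218 in the water + Dex mice, 1507, 1548 and 1548 in the ZnSO4 + PBS mice, and 1244, 1084 and 1286 in the ZnSO4 + Dex mice. All 6 Dex mice were below all 6 PBS mice, and the mice with the same injection overlapped between water and ZnSO4. Cebpg fell with Dex in water mice, by a log2 fold change of -0.34 ± 0.07 (adjusted p = 0.0110), and in ZnSO4 mice, by -0.35 ± 0.07 (adjusted p = 0.00707). Without water + Dex mouse 2 or mouse 3 the first of these calls was lost (adjusted p up to 0.0587).

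Ddit3, which encodes the factor CHOP of prolonged stress, had 83.7, 86.3 and 102 in the water + PBS mice, 84.7, 73.4 and 71.3 in the water + Dex mice, 139.5, 89.7 and 94.5 in the ZnSO4 + PBS mice, and 77.8, 65.3 and 64.1 in the ZnSO4 + Dex mice. ZnSO4 + PBS mouse 1 stood high, and the 3 ZnSO4 + Dex mice were below the 3 ZnSO4 + PBS mice. Ddit3 fell with Dex in ZnSO4 mice, with a log2 fold change of -0.64 ± 0.18 (adjusted p = 0.0358), and its value with Dex in water mice was -0.24 ± 0.18 (adjusted p = 0.476). The call in ZnSO4 mice was lost without ZnSO4 + PBS mouse 1 or any ZnSO4 + Dex mouse (adjusted p up to 0.142). Cebpb, an inducible C/EBP factor, had 295, 241 and 147 in the water + PBS mice, 174, 134 and 206 in the water + Dex mice, 132, 156 and 157 in the ZnSO4 + PBS mice, and 145, 216 and 210.4 in the ZnSO4 + Dex mice. Water + PBS mice 1 and 2 were the highest of all and mouse 3 lay among the treated mice. The log2 fold change of Cebpb was -0.61 ± 0.25 (adjusted p = 0.190) with ZnSO4 in PBS mice and 0.15 ± 0.25 (adjusted p = 0.785) with ZnSO4 in Dex mice, and 20.7% of its exon length overlaps Tmem189 on the other strand. Atf5, a related factor, and Nupr1, a small stress-induced chromatin protein, were called in no comparison, with log2 fold changes from -0.38 to -0.10 and from -0.32 to -0.08.

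Chac1 changed most among the kinases and feedback genes, and it was the one member that fell past the limit of 0.8 with either treatment. It encodes an enzyme that breaks down glutathione and is a well-known late target of ATF4 (ENSMUSG00000027313, chr2:119351229-119354381, + strand). Its normalised counts were 70.0, 42.1 and 35.2 in the water + PBS mice, 15.6, 14.0 and 13.0 in the water + Dex mice, 17.9, 7.32 and 19.5 in the ZnSO4 + PBS mice, and 5.18, 8.65 and 7.48 in the ZnSO4 + Dex mice. Every treated mouse was below every water + PBS mouse, and the mice with both treatments were the lowest, with ZnSO4 + PBS mouse 2 among them. The log2 fold change was -1.71 ± 0.35 (adjusted p = 0.0204) with ZnSO4 in PBS mice, -1.78 ± 0.36 (adjusted p = 0.00837) with Dex in water mice and -2.76 ± 0.39 (adjusted p = 4.52e-04) with both treatments against neither. Added to the other treatment each effect was smaller and was not called, at -0.98 ± 0.43 (adjusted p = 0.244) for ZnSO4 in Dex mice and -1.05 ± 0.42 (adjusted p = 0.137) for Dex in ZnSO4 mice, and the test of the difference itself gave an adjusted p of 0.959. The ZnSO4 call was lost without water + PBS mouse 1, the highest library, or ZnSO4 + PBS mouse 1 (adjusted p up to 0.0880). The other 2 comparisons kept their calls without any 1 library.

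Eif4ebp1, the repressor that blocks the cap-binding factor of translation, had 253, 264 and 210.0 in the water + PBS mice, 358, 309 and 403 in the water + Dex mice, 319, 286 and 353 in the ZnSO4 + PBS mice, and 388, 398 and 449.6 in the ZnSO4 + Dex mice. The Dex mice and the ZnSO4 mice were all above the water + PBS mice, and the ZnSO4 + Dex mice were above the ZnSO4 + PBS mice. Eif4ebp1 rose with Dex in water mice, by 0.56 ± 0.13 (adjusted p = 0.0158), and with both treatments, by 0.76 ± 0.13 (adjusted p = 0.00124), while the values with ZnSO4 in PBS mice, 0.40 ± 0.13 (adjusted p = 0.102), and with Dex in ZnSO4 mice, 0.37 ± 0.13 (adjusted p = 0.0797), did not pass. Without water + PBS mouse 3 or water + Dex mouse 1 or 3 the Dex call was lost (adjusted p up to 0.0847), and the call for both treatments was kept without any 1 library. Eif2ak4, the kinase GCN2 that senses uncharged tRNA, had 162, 155 and 148 in the water + PBS mice, 164, 152 and 165 in the water + Dex mice, 139.5, 162 and 160.2 in the ZnSO4 + PBS mice, and 187, 258 and 180.5 in the ZnSO4 + Dex mice. Only with both treatments were all 3 mice above the others, with mouse 2 of that group far higher than the rest, and Eif2ak4 rose in that comparison by 0.43 ± 0.14 (adjusted p = 0.0439). The call was lost without any 1 of 10 libraries (adjusted p up to 0.159), all except ZnSO4 + Dex mice 1 and 3.

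The other regulators were called in no comparison. Eif2ak3, the kinase PERK of the endoplasmic reticulum, had 1010.1, 1018 and 1007 normalised counts in the water + Dex mice, all above the 649, 813 and 829.5 of the water + PBS mice, with a log2 fold change of 0.41 ± 0.13 (adjusted p = 0.0663). Trib3, a pseudokinase that restrains ATF4, had 15.6, 20.5 and 22.7 in the water + Dex mice and 37.0, 41.1 and 23.8 in the water + PBS mice, with a log2 fold change of -0.79 ± 0.33 (adjusted p = 0.175) and no overlap between the groups. Ppp1r15a, the phosphatase subunit GADD34 that restores eIF2, lay within log2 fold changes of -0.08 and 0.27, and Sesn2, a leucine sensor that restrains mTORC1, within -0.11 and 0.41.

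Among the 10 enzymes, Asns and Shmt2 fell and Cth rose with ZnSO4 in PBS mice. With ZnSO4 in PBS mice the median log2 fold change of the enzymes was -0.52. An unadjusted p under 0.05 was found for 7 of the 10 and for 3161 of the 15938 genes. The 7 enzymes besides Asns, Shmt2 and Cth did not pass after adjustment. Asns makes asparagine (ENSMUSG00000029752, chr6:7675169-7693254, - strand) and had 749, 641 and 529 in the water + PBS mice, 527, 435 and 673 in the water + Dex mice, 374, 332 and 407 in the ZnSO4 + PBS mice, and 431, 484 and 334 in the ZnSO4 + Dex mice. All 3 ZnSO4 + PBS mice were below all 3 water + PBS mice, and the water + Dex mice were above the ZnSO4 + PBS mice and overlapped the other groups. Asns fell by -0.79 ± 0.18 (adjusted p = 0.0340) with ZnSO4 in PBS mice and by -0.62 ± 0.18 (adjusted p = 0.0295) with both treatments, and its value with ZnSO4 in Dex mice was -0.39 ± 0.18 (adjusted p = 0.276). Shmt2, which converts serine to glycine in mitochondria, had 457, 552 and 387 in the water + PBS mice, 501, 376 and 473 in the water + Dex mice, 251, 346 and 262 in the ZnSO4 + PBS mice, and 283, 374 and 315 in the ZnSO4 + Dex mice. The ZnSO4 mice were below the water mice under either injection. Shmt2 fell by -0.70 ± 0.17 (adjusted p = 0.0415) with ZnSO4 in PBS mice and by -0.52 ± 0.17 (adjusted p = 0.0462) with both treatments, and the value with ZnSO4 in Dex mice was -0.47 ± 0.17 (adjusted p = 0.152).

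**Figure D2:**
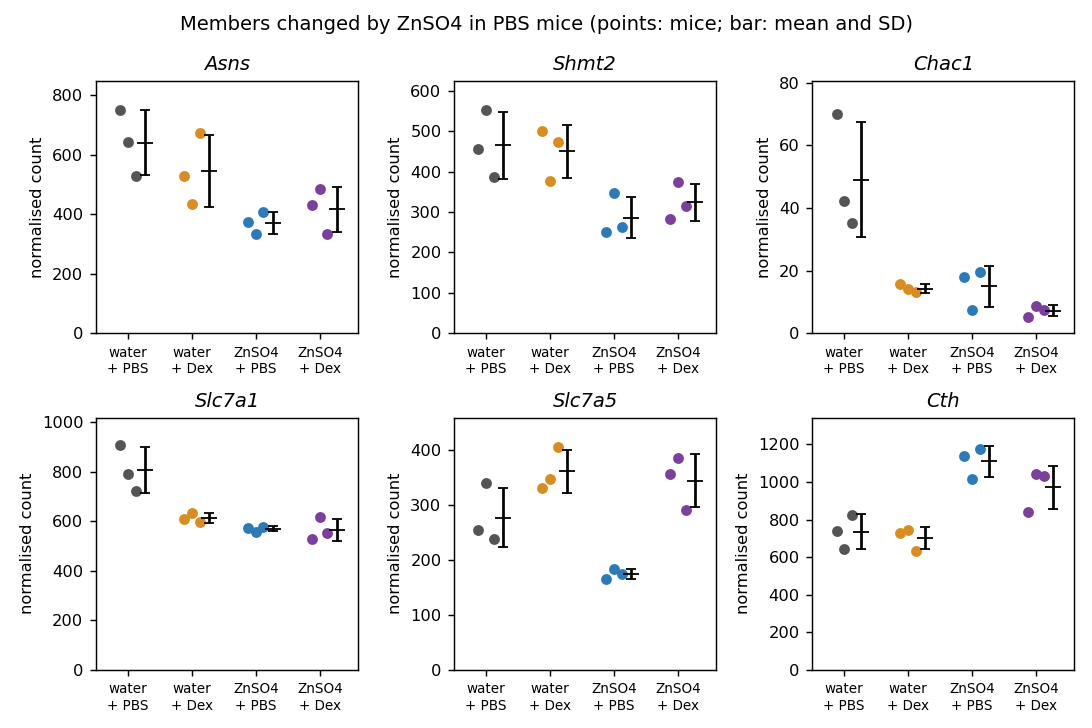
Normalised counts (linear axis from 0) of the 6 members called with ZnSO4 in PBS mice, 1 point per mouse, with bars for the mean and SD of the 3 mice of each group. The 3 ZnSO4 + PBS mice do not overlap the 3 water + PBS mice for any of these 6 genes, which that comparison picked. Of the 15938 genes tested, 1978 were higher and 2052 lower with no overlap in it. Slc7a5 averaged 175 normalised counts in the ZnSO4 + PBS mice and 344 in the ZnSO4 + Dex mice.

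Phgdh, Psat1 and Psph carry out the steps of serine synthesis from a glycolytic intermediate. Psat1 had 268, 438 and 317 in the water + PBS mice, 279, 216 and 317 in the water + Dex mice, 162, 235 and 205 in the ZnSO4 + PBS mice, and 157, 241 and 173 in the ZnSO4 + Dex mice. Phgdh had 170.2, 253 and 132 in the water + PBS mice, 145, 109 and 126 in the water + Dex mice, 91.5, 136 and 117 in the ZnSO4 + PBS mice, and 80.9, 126 and 80.1 in the ZnSO4 + Dex mice. For both genes all ZnSO4 + Dex mice were below all water + PBS mice, and water + PBS mouse 2, the library with the most B cell marker RNA, was the highest of the 12. Psat1 and Phgdh fell with both treatments, by -0.84 ± 0.23 (adjusted p = 0.0197) and -0.95 ± 0.26 (adjusted p = 0.0207), and were at -0.76 ± 0.22 (adjusted p = 0.0792) and -0.69 ± 0.25 (adjusted p = 0.158) with ZnSO4 in PBS mice, which did not pass. Both calls were lost without water + PBS mouse 2 or ZnSO4 + Dex mouse 1 or 3 (adjusted p up to 0.0831 and, for Psat1, 0.0788). The value of Phgdh is uncertain in another way, since 56.3% of the 31-base stretches of its exons also occur in other genes, chiefly Gm7901. Psph was at -0.39 ± 0.14 (adjusted p = 0.136) with ZnSO4 in PBS mice, with the 3 ZnSO4 + PBS mice (76.4, 89.7 and 78.7) below the 3 water + PBS mice (109, 112 and 98.8).

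Mthfd2, the mitochondrial folate enzyme next to Shmt2, had 235, 323 and 242 in the water + PBS mice, 249, 159.8 and 217 in the water + Dex mice, 158, 182 and 165 in the ZnSO4 + PBS mice, and 186, 204 and 147 in the ZnSO4 + Dex mice. Again every ZnSO4 mouse was below every water + PBS mouse, and mouse 2 of the water + PBS group was the highest. Mthfd2 fell by -0.58 ± 0.18 (adjusted p = 0.0399) with both treatments and was at -0.66 ± 0.18 (adjusted p = 0.0626) with ZnSO4 in PBS mice. These falls were close to the threshold. In PBS mice the ZnSO4 call of Asns was lost without any 1 of 7 libraries (water + PBS mouse 1 or 2, any ZnSO4 + PBS mouse, and mouse 1 of water + Dex or of ZnSO4 + Dex, adjusted p up to 0.128) and that of Shmt2 without any 1 of 8 (water + PBS mouse 1 or 2, ZnSO4 + PBS mouse 1 or 3, and mouse 1 or 3 of either Dex group, adjusted p up to 0.151). With both treatments the call of Asns was lost without water + PBS mouse 1 or 2 or ZnSO4 + Dex mouse 1 or 3 (up to 0.0974), that of Shmt2 without any of these 4, water + Dex mouse 1 or 3 or ZnSO4 + PBS mouse 3 (up to 0.167), and that of Mthfd2 without water + PBS mouse 2 or 3 or mouse 1 or 3 of either ZnSO4 group (up to 0.149).

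Cth went the other way. It encodes cystathionine gamma-lyase, which makes cysteine from methionine-derived cystathionine, and it had 737, 641 and 826 in the water + PBS mice, 726, 746 and 633 in the water + Dex mice, 1137, 1016 and 1174 in the ZnSO4 + PBS mice, and 841, 1043 and 1031 in the ZnSO4 + Dex mice. All 6 ZnSO4 mice were above all 6 water mice. Cth rose by 0.59 ± 0.11 (adjusted p = 0.0153) with ZnSO4 in PBS mice, by 0.47 ± 0.11 (adjusted p = 0.0421) with ZnSO4 in Dex mice and by 0.40 ± 0.11 (adjusted p = 0.0256) with both treatments, and it was the only member called with ZnSO4 under Dex. The ZnSO4 call in PBS mice was lost without water + PBS mouse 2 or ZnSO4 + PBS mouse 1 or 3 (adjusted p up to 0.0642), that in Dex mice without any 1 of 8 libraries, all except water + PBS mice 2 and 3, ZnSO4 + PBS mouse 2 and ZnSO4 + Dex mouse 1 (up to 0.148), and that of both treatments without mouse 1 or 2 of water + PBS or mouse 2 or 3 of ZnSO4 + Dex (up to 0.0995).

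Pck2, the mitochondrial enzyme that makes phosphoenolpyruvate, had 413, 443 and 336 in the water + PBS mice, 409, 458 and 496 in the water + Dex mice, 467, 420.1 and 538 in the ZnSO4 + PBS mice, and 583, 716 and 534 in the ZnSO4 + Dex mice. The 3 ZnSO4 + Dex mice were above all others except that ZnSO4 + PBS mouse 3 reached their lower end. Pck2 rose with both treatments, by 0.62 ± 0.14 (adjusted p = 0.00826), a call kept without any 1 library, and was at 0.43 ± 0.14 (adjusted p = 0.116) with ZnSO4 in Dex mice. Aldh18a1, the first enzyme of proline synthesis, responded to Dex. It had 1223, 1215 and 1169.7 in the water + PBS mice, 896, 854 and 911 in the water + Dex mice, 1465, 1247 and 1212 in the ZnSO4 + PBS mice, and 926, 1042 and 931 in the ZnSO4 + Dex mice. All 6 Dex mice were below all 6 PBS mice. Aldh18a1 fell by -0.44 ± 0.08 (adjusted p = 0.00501) with Dex in water mice and by -0.44 ± 0.08 (adjusted p = 0.00383) in ZnSO4 mice, both kept without any 1 library, and by -0.31 ± 0.08 (adjusted p = 0.0162) with both treatments, which was lost without ZnSO4 + Dex mouse 1 or 3 (adjusted p up to 0.0619). Pycr1, which completes proline synthesis, was called in no comparison, with log2 fold changes from -0.12 to 0.16.

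Among the carriers Slc6a9 rose most. Slc6a9, the glycine transporter GLYT1 (ENSMUSG00000028542, chr4:117834506-117875198, + strand), had 72.0, 88.3 and 69.4 in the water + PBS mice, 249, 295 and 259 in the water + Dex mice, 54.7, 60.4 and 72.2 in the ZnSO4 + PBS mice, and 268, 219 and 169 in the ZnSO4 + Dex mice. The lowest Dex mouse was well above the highest PBS mouse. Slc6a9 rose by 1.80 ± 0.18 (adjusted p = 6.71e-05) with Dex in water mice and by 1.80 ± 0.18 (adjusted p = 6.31e-05) in ZnSO4 mice, and its value with ZnSO4 in PBS mice was -0.29 ± 0.18 (adjusted p = 0.418). Since 30.2% of its exon length overlaps B4galt2, Ccdc24 and Gm17114 on the other strand, and the strand setting of the counting is not given in the sources used here, reads of these genes could be part of the value. Slc7a5, the large neutral amino acid carrier LAT1, had 255, 339 and 238 in the water + PBS mice, 331, 347 and 405 in the water + Dex mice, 166, 184 and 175 in the ZnSO4 + PBS mice, and 357, 385 and 292 in the ZnSO4 + Dex mice. The 3 ZnSO4 + PBS mice were the lowest of the 12, below every other mouse. Slc7a5 fell by -0.66 ± 0.15 (adjusted p = 0.0304) with ZnSO4 in PBS mice and rose by 0.98 ± 0.15 (adjusted p = 0.00103) with Dex in ZnSO4 mice, while Dex in water mice gave 0.38 ± 0.15 (adjusted p = 0.141). The rise was kept without any 1 library, and the fall was lost without water + PBS mouse 1 or 2 or any ZnSO4 + PBS mouse (adjusted p up to 0.104). Its partner chain Slc3a2 was called in no comparison, with log2 fold changes from -0.18 to 0.27.

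**Figure D3:**
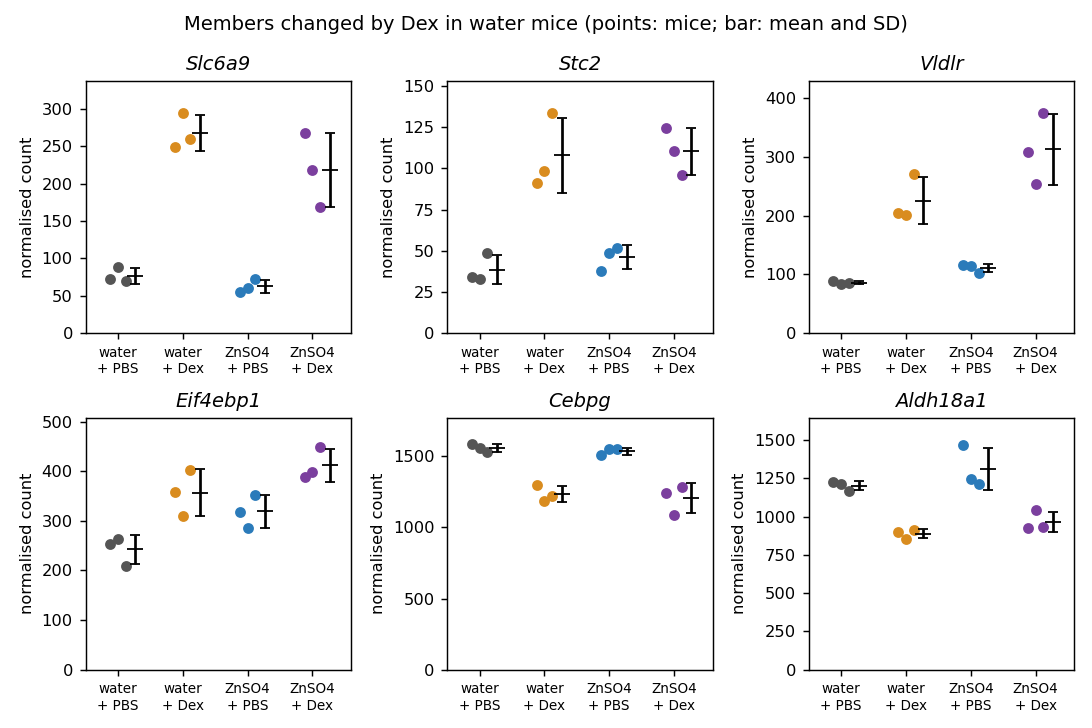
Normalised counts (linear axis from 0) of 6 members called with Dex in water mice, 1 point per mouse, with bars for the mean and SD of the 3 mice of each group. For Slc6a9, Stc2 and Vldlr the 6 Dex mice lie above the 6 PBS mice, and for Cebpg and Aldh18a1 below them.

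Slc7a1, the arginine and lysine carrier CAT-1, had 906, 789.6 and 721 in the water + PBS mice, 609, 633 and 595 in the water + Dex mice, 572, 557 and 577 in the ZnSO4 + PBS mice, and 527, 615 and 551 in the ZnSO4 + Dex mice. All 9 treated mice were below all 3 water + PBS mice and the ZnSO4 + Dex mice overlapped both groups given 1 treatment. Slc7a1 fell by -0.50 ± 0.09 (adjusted p = 0.00993) with ZnSO4 in PBS mice, by -0.40 ± 0.09 (adjusted p = 0.0142) with Dex in water mice and by -0.51 ± 0.09 (adjusted p = 0.00155) with both treatments, and ZnSO4 in Dex mice gave -0.12 ± 0.09 (adjusted p = 0.520). The first and last of these calls were kept without any 1 library, and the Dex call was lost without water + Dex mouse 1 or 3 (adjusted p up to 0.0626). Slc38a2, the small neutral amino acid carrier SNAT2, had 1785, 1528 and 1499 in the water + PBS mice, 1370.2, 1163 and 1287 in the water + Dex mice, 1402, 1582 and 1547 in the ZnSO4 + PBS mice, and 1453, 1485 and 1606 in the ZnSO4 + Dex mice. The water + Dex mice were below all the others. Slc38a2 fell by -0.33 ± 0.09 (adjusted p = 0.0376) with Dex in water mice, and Dex in ZnSO4 mice gave 0.00 ± 0.09 (adjusted p = 0.985). The call was lost without water + PBS mouse 1 or 2, water + Dex mouse 2 or 3, ZnSO4 + PBS mouse 3 or ZnSO4 + Dex mouse 1 (adjusted p up to 0.145). Slc1a5, the glutamine carrier ASCT2, had 745, 967 and 820.0 in the water + PBS mice, 1050.2, 880.2 and 1180.0 in the water + Dex mice, 974, 906 and 873 in the ZnSO4 + PBS mice, and 999, 1239 and 1066 in the ZnSO4 + Dex mice, and rose with both treatments by 0.38 ± 0.13 (adjusted p = 0.0463). The ZnSO4 + Dex mice were above the water + PBS mice by a narrow margin, and the call was lost without any 1 of 8 libraries, all except water + PBS mouse 2, water + Dex mice 2 and 3 and ZnSO4 + Dex mouse 1 (adjusted p up to 0.147). Slc1a4, its relative ASCT1, was called in no comparison, with log2 fold changes from -0.09 to 0.11.

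Of the secreted and surface proteins, Stc2 and Vldlr rose with Dex whether or not zinc had been given. Stc2, the secreted glycoprotein stanniocalcin-2, had 34.0, 33.1 and 48.5 in the water + PBS mice, 91.4, 98.3 and 134 in the water + Dex mice, 37.7, 48.5 and 51.9 in the ZnSO4 + PBS mice, and 124, 110.5 and 96.1 in the ZnSO4 + Dex mice. Vldlr, a receptor for triglyceride-rich lipoproteins, had 88.5, 84.3 and 85.5 in the water + PBS mice, 204, 202 and 271 in the water + Dex mice, 116, 114 and 103 in the ZnSO4 + PBS mice, and 309, 255 and 376 in the ZnSO4 + Dex mice. For each gene the 6 Dex mice were above the 6 PBS mice, and for Vldlr the 3 ZnSO4 + PBS mice were also above the 3 water + PBS mice. Stc2 rose by 1.48 ± 0.21 (adjusted p = 9.17e-04) with Dex in water mice and by 1.26 ± 0.21 (adjusted p = 0.00167) in ZnSO4 mice. Vldlr rose by 1.39 ± 0.16 (adjusted p = 2.02e-04) and by 1.49 ± 0.16 (adjusted p = 8.27e-05), and by 1.86 ± 0.16 (adjusted p = 1.59e-05) with both treatments, while ZnSO4 alone gave 0.37 ± 0.16 (adjusted p = 0.233) in PBS mice and 0.47 ± 0.15 (adjusted p = 0.114) in Dex mice. All Dex calls of both genes were kept without any 1 library. Ddr2, a collagen receptor, was called in no comparison, with log2 fold changes from -0.05 to 0.24, and Gdf15, a stress hormone, had at most 9 reads in a library.

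No member passed the test of an interaction, which asks whether the Dex effect differs between water and ZnSO4 mice. Of the 33 members, 4 had an unadjusted p under 0.05, as had 794 of the 15938 genes, and 0 of all genes passed after adjustment (edgeR, and for the members also DESeq2). The 4 were Slc7a1 (interaction 0.38 ± 0.12 (adjusted p = 0.952)), Slc7a5 (0.60 ± 0.21 (adjusted p = 0.952)), Slc38a2 (0.34 ± 0.13 (adjusted p = 0.952)) and Cebpb (0.77 ± 0.35 (adjusted p = 0.952)). All 4 were positive, meaning a more positive or less negative log2 fold change with Dex in ZnSO4 mice than in water mice. For Slc7a1 and Slc38a2, which fell with Dex in water mice, the estimate under ZnSO4 was a smaller fall or none. A difference between the calls of a gene in water and in ZnSO4 mice was therefore not shown by this test. In the comparisons that share no library, the log2 fold changes of the 33 members had a Pearson r of 0.912 between Dex in water mice and Dex in ZnSO4 mice and 0.841 between ZnSO4 in PBS mice and ZnSO4 in Dex mice, against 0.721 and 0.563 over all genes. The sign was the same for 23 of 33 members (69.7%) in the first pair and 27 of 33 (81.8%) in the second, against 71.4% and 69.4% of all genes. These values describe genes, which are not independent replicates. A few members with large log2 fold changes weigh heavily in r. Among them were Slc6a9, Stc2, Vldlr and Chac1 in the Dex pair, and Chac1 in the ZnSO4 pair.

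**Figure D4:**
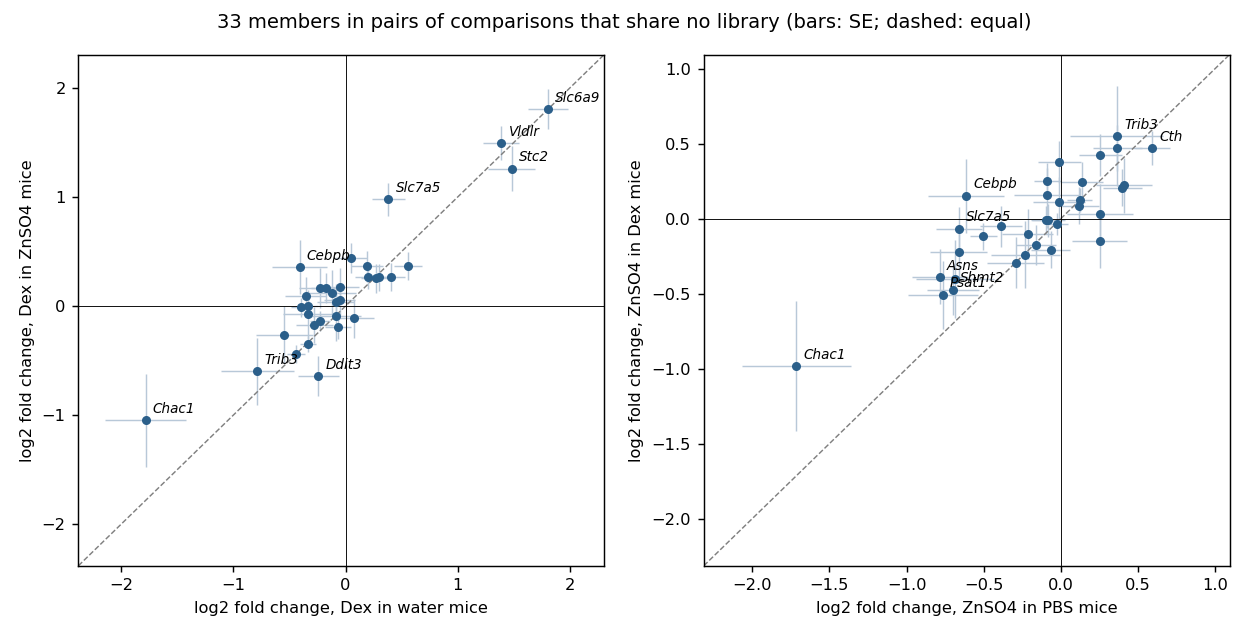
Log2 fold changes of the 33 members, with SE bars, in the 2 pairs of comparisons that share no library: Dex in water mice against Dex in ZnSO4 mice, and ZnSO4 in PBS mice against ZnSO4 in Dex mice. Slc6a9, Stc2 and Vldlr lie near the dashed line of equal effects, Slc7a5 lies above it in the left panel, and Chac1 is at -1.71 and -0.98 in the right panel.

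The cytosolic aminoacyl-tRNA synthetases, which charge tRNA with amino acids and include many ATF4 targets, fell in part with ZnSO4 in PBS mice. Of 20 tested, 0 rose and 6 fell, while 2.54% of all genes fell. A log2 fold change below 0 was found for 19 of the 20 and for 8283 of the 15938 genes, and the median of the 20 was -0.29. The 6 were Mars (-0.57 ± 0.10 (adjusted p = 0.00939)), Cars (-0.56 ± 0.11 (adjusted p = 0.0175)), Iars (-0.41 ± 0.08 (adjusted p = 0.0153)), Nars (-0.39 ± 0.09 (adjusted p = 0.0307)), Tars (-0.34 ± 0.08 (adjusted p = 0.0454)) and Aars (-0.28 ± 0.07 (adjusted p = 0.0342)). In 15 of the 20 every ZnSO4 + PBS mouse was below every water + PBS mouse, as for 2052 of the 15938 genes. Mars, the methionine enzyme, had 648, 567 and 544 in the water + PBS mice, 458, 431 and 493 in the water + Dex mice, 399, 406 and 383 in the ZnSO4 + PBS mice, and 339, 424 and 396 in the ZnSO4 + Dex mice. The ZnSO4 + PBS mice were below all water mice, and the water + Dex mice lay between. With ZnSO4 in Dex mice 0 of 20 passed in either direction in edgeR, with a median of -0.14, and DESeq2 called 1 lowered. An unadjusted p under 0.05 in edgeR was found there for 5 of the 20 and for 3048 of the 15938 genes. With both treatments 7 fell (35.0%, against 11.9% of all genes), and Dex changed 1 in either setting, Mars in water mice (-0.35 ± 0.10 (adjusted p = 0.0455)) and Eprs in ZnSO4 mice (0.29 ± 0.08 (adjusted p = 0.0398)). Each of these single Dex calls was lost in most fits without 1 library. The 6 falls with ZnSO4 became 1 without water + PBS mouse 1 or ZnSO4 + PBS mouse 1, 2 without ZnSO4 + PBS mouse 2 or 3, 3 without water + Dex mouse 2 or 3, and 4 to 8 without any other library, and the median stayed between -0.32 and -0.22. They were 0 with the plasma cell covariate described at the end, 2 in a fit of the compared groups alone and 3 with no filter on low counts, and the 7 falls with both treatments were 0, 4 and 4, and 4 without water + PBS mouse 1 or ZnSO4 + Dex mouse 1. None of the 20 passed the limit of 0.8 in this comparison.

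**Figure D5:**
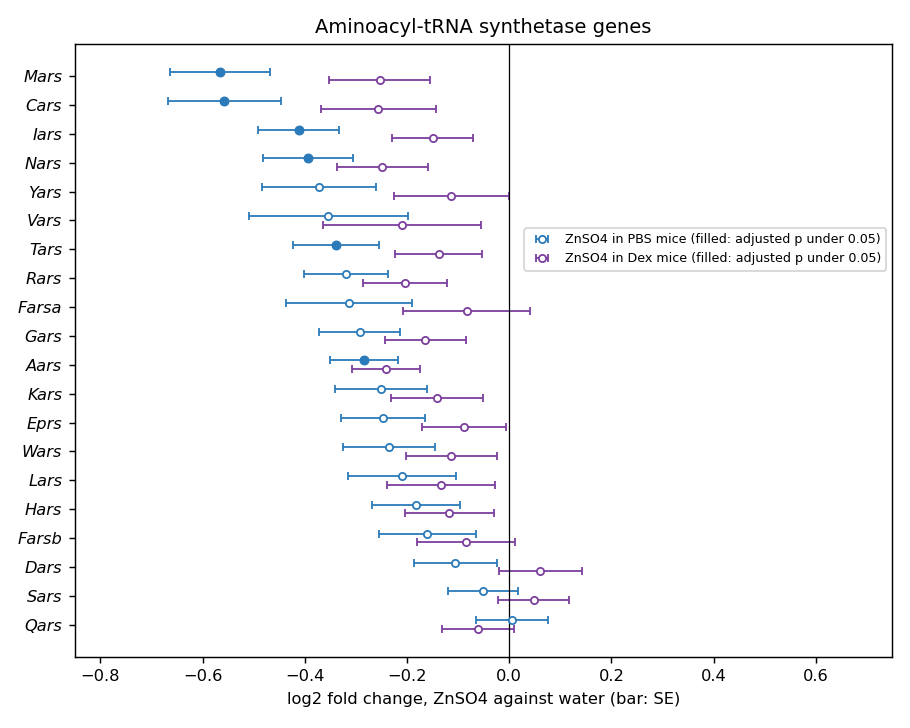
Log2 fold changes with SE bars of the 20 synthetase genes for ZnSO4 in PBS mice and ZnSO4 in Dex mice, filled where the adjusted p was under 0.05. In PBS mice 19 of the 20 lie left of 0 and 6 are filled, and in Dex mice 18 lie left of 0 and none is filled.

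Among 28 other amino acid carriers tested, the shares that changed lay near those of all genes, at 3.57% with ZnSO4 in PBS mice (4.66% of all genes), 10.7% with Dex in water mice (9.93%), 17.9% with Dex in ZnSO4 mice (13.7%) and 25.0% with both treatments (23.3%). ZnSO4 in PBS mice raised 1, the proline carrier Slc6a20a, by 1.12 ± 0.17 (adjusted p = 0.00472), and Dex in water mice raised 2 and lowered 1. The 2 were the taurine carrier Slc6a6, by 1.68 ± 0.14 (adjusted p = 2.10e-05), and the arginine carrier Slc7a2, by 1.35 ± 0.26 (adjusted p = 0.00563), and both rose again with Dex in ZnSO4 mice, by 1.57 ± 0.14 (adjusted p = 3.02e-05) and 1.51 ± 0.26 (adjusted p = 0.00219). The glutamine carrier Slc38a1 fell by -0.43 ± 0.09 (adjusted p = 0.0101) with Dex in water mice. In ZnSO4 mice Dex raised 4, also Slc38a4 (2.13 ± 0.53 (adjusted p = 0.0192)) and Slc7a8 (0.73 ± 0.13 (adjusted p = 0.00369)), and lowered 1, Slc6a20a (-0.71 ± 0.17 (adjusted p = 0.0161)). Slc7a8 also rose with ZnSO4 in Dex mice, by 0.79 ± 0.14 (adjusted p = 0.00812), and with both treatments 5 rose and 2 fell. Without ZnSO4 + Dex mouse 3 the 2 became 5.

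Of 21 other genes of the eIF2 and unfolded protein responses, ZnSO4 in PBS mice lowered the eIF2 subunits Eif2s2, by -0.72 ± 0.12 (adjusted p = 0.00648), and Eif2s1, by -0.35 ± 0.06 (adjusted p = 0.0104), and raised 0. The 2 lowered are 9.52% of the 21, against 2.54% of all genes. They became 1 without water + PBS mouse 1, 6 without ZnSO4 + Dex mouse 2, 5 in DESeq2 and 0 in a fit of the compared groups alone. Eif2s2 also fell with ZnSO4 in Dex mice, by -0.52 ± 0.12 (adjusted p = 0.0303), and was the 1 gene of these 21 that passed there, a call lost without any 1 of the water + Dex mice or ZnSO4 + Dex mouse 2 or 3 (DESeq2 called 4 lowered). Dex in water mice raised Ddit4, an inhibitor of mTORC1, by 4.19 ± 0.20 (adjusted p = 5.23e-07), the endoplasmic reticulum protein Herpud1 by 2.12 ± 0.10 (adjusted p = 5.23e-07) and the stress-induced factor Atf3 by 1.05 ± 0.25 (adjusted p = 0.0208), and lowered the oxidative stress factor Nfe2l2, by -0.83 ± 0.07 (adjusted p = 1.22e-05). The 3 raised became 2 without water + PBS mouse 1 or 2 or water + Dex mouse 1 or 3, and with the plasma cell covariate. In ZnSO4 mice Dex raised Ddit4 and Herpud1 again, by 4.30 ± 0.20 (adjusted p = 4.19e-07) and 2.59 ± 0.10 (adjusted p = 1.27e-07), but not Atf3, and lowered 3, of which Nfe2l2 moved most (-0.82 ± 0.07 (adjusted p = 1.17e-05)). Dex thus changed 19.0% of the 21 in water mice and 23.8% in ZnSO4 mice, against 9.93% and 13.7% of all genes, and the 3 lowered became 1 without water + Dex mouse 1, ZnSO4 + PBS mouse 1 or 3, or ZnSO4 + Dex mouse 2 or 3. With both treatments 2 of the 21 rose and 7 fell (42.9% changed, against 23.3% of all genes), among them the endoplasmic reticulum genes Xbp1 (-0.69 ± 0.11 (adjusted p = 8.71e-04)) and Hspa5 (-0.66 ± 0.18 (adjusted p = 0.0219)).

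Markers of plasma cells, T cells and goblet cells moved with the ZnSO4 results, and in Dex mice so did those of smooth muscle and fibroblasts. The marker sums of enterocytes, goblet cells and macrophages were higher with Dex in water mice, and those of macrophages also in ZnSO4 mice. With ZnSO4 in PBS mice 1 of the 6 plasma cell markers fell (Derl3, -0.90 ± 0.21 (adjusted p = 0.0342)), against 2.54% of all genes, and the median of the 6 was -0.67. For 4 of them every ZnSO4 + PBS mouse was below every water + PBS mouse, as for 2052 of the 15938 genes. With both treatments 5 of the 6 fell, against 11.9% of all genes. T cell markers summed to 75.5, 132 and 76.7 CPM in the water + PBS mice and 50.5, 74.5 and 35.6 in the ZnSO4 + PBS mice, and to 73.2 or more in the water + Dex mice and 42.7 or less in the ZnSO4 + Dex mice. Of the 7 T cell markers 1 fell with ZnSO4 in PBS mice, 3 fell with ZnSO4 in Dex mice and 6 fell with both treatments, with a median of -1.56 in the last. The shares of all genes that fell were 2.54%, 2.54% and 11.9%. Goblet cell markers summed to 12519 to 12629 CPM in the water + PBS mice, 13878 to 16616 in the ZnSO4 + PBS mice, 14078 to 14960.4 in the water + Dex mice and 16174 to 18947 in the ZnSO4 + Dex mice, with no overlap of the ZnSO4 mice with the water mice under the same injection. Of the 6 goblet cell markers 1 rose with ZnSO4 in PBS mice (the mucin Muc2, 0.88 ± 0.20 (adjusted p = 0.0329)) and 4 rose with both treatments. The shares of all genes that rose were 2.11% and 11.5%. Smooth muscle markers summed to 2315 to 3355 CPM in the ZnSO4 + Dex mice and 2070 to 2227 in the water + Dex mice. Fibroblast markers summed to 1107 to 1590 and 936 to 1085 in the same groups. No marker of either was called there, and in PBS mice the sums overlapped. Enterocyte markers summed to 21382 to 24983 CPM in the water + Dex mice and 16810 to 20593 in the water + PBS mice. Macrophage markers summed to 368 to 429 and 275 to 331 in the same groups. In the ZnSO4 + Dex mice the macrophage sums were 320 to 386, and in the ZnSO4 + PBS mice 252 to 279. With Dex in water mice 1 of the 9 enterocyte and 1 of the 6 macrophage markers rose, against 5.41% of all genes. With Dex in ZnSO4 mice 2 of the 6 macrophage markers rose, against 6.65%. Enterocyte and goblet cell sums overlapped between the 2 ZnSO4 groups, and the sums of the other cell types overlapped between Dex and PBS mice. ZnSO4 + Dex mouse 2 had the lowest enterocyte sum of the 12 libraries, 12515 CPM. With the mean log2 CPM of the plasma cell markers as a covariate, a fit chosen after these values had been seen, 0 members were called with ZnSO4 in PBS mice, but only 27 of all genes (0.169%) were called then, and the SE of a gene was 2.04 times that without the covariate in the median, because the covariate follows the groups. The sign was the same for 26 of the 33 members. Slc6a9, Stc2 and Vldlr kept their calls with Dex in water mice under the covariate. The mean of the B cell markers as a covariate left 1 raised and 5 lowered members with ZnSO4 in PBS mice. The part of these cells in the results was not tested.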

How the data were processed

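RNA of 12 ileum pieces was made into stranded libraries and sequenced single-end. The authors trimmed reads with Trimmomatic, mapped them to mm10 with HISAT2 2.0.4 and counted them per gene with featureCounts, as named in the methods and the submitters' processing notes, and deposited raw counts for 54838 Ensembl genes. The annotation release and the strand setting are not given in the sources used here. Symbols and positions came from GENCODE M21 (GRCm38, the assembly of mm10) and matched 54809 rows. A second gene model named Ddit3, of 105 bases, had 0 counts.

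Counts were analysed in R 4.3.3 with edgeR 4.0.16: filterByExpr by group (minimum count 10) left 15938 genes with 99.8% of all counts, followed by TMM factors, 1 quasi-likelihood fit of 4 group means, and Benjamini-Hochberg adjustment over all genes tested for each of 6 contrasts. The study used DESeq2, which was run here (version 1.42.0) as an alternative. The other alternatives were RLE and upper-quartile factors, other filters, a block for the replicate number, a fit of the compared groups alone, a limit of 0.8 on the log2 fold change, marker covariates, and leaving out each library. The members, the further lists, the markers and the tests were chosen with earlier results of these data known. All members with a row were named, with the value of every mouse for those changed in a comparison or with an unadjusted interaction p under 0.05, and in the further lists up to 6 changed genes per comparison. Fold changes have no interval beyond the SE, which covers the spread between mice.

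Libraries with the same replicate number did not deviate together (median correlation -0.06 over 18 pairs, 0.02 over 36 pairs of different numbers), so the numbers were not taken as pairs. Within groups, 12 pairs of libraries differed more than repeats of 1 library would, with a chi-square per degree of freedom of 8.30 to 45.3. On counts simulated for 15938 genes with 200 changed, edgeR recovered 52% of log2 fold changes of 1 and 83% of those of 2 for ZnSO4 in PBS mice, and 59% and 92% for Dex in water mice, with 8 and 6 unchanged genes called. DESeq2 recovered 61% and 86% for ZnSO4 in PBS mice and 65% and 91% for Dex in water mice, with 32 and 23 unchanged genes called.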

Additional observations from a re-analysis of the deposited data

How the results depend on the processing

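Among 4283 recomputed values of single members, 189 calls were lost and 21 gained, and 156 values changed sign with no call in either fit. The 1 reversal of a call was Aldh18a1 with both treatments, at 0.053 with the plasma cell covariate, where it was not called. RLE and upper-quartile factors, DESeq2 and the filters on low counts moved no count of members by more than 1.5 times, and DESeq2 gave 1 raised and 7 lowered members with ZnSO4 in PBS mice. For the other settings, the counts that moved were as follows. With ZnSO4 in PBS mice (1 raised, 5 lowered), only the groups compared gave 2 lowered, the plasma cell covariate 0 raised and 0 lowered, and the limit of 0.8 gave 0 raised and 1 lowered. With Dex in water mice (5 lowered), the plasma cell covariate and the limit of 0.8 each gave 1 lowered. The 1 member raised with ZnSO4 in Dex mice (Cth) was 0 with only the groups compared, with either covariate and with the limit of 0.8. With Dex in ZnSO4 mice (3 lowered), the plasma cell covariate and only the groups compared each gave 1 lowered, and the limit of 0.8 gave 0. With both treatments against neither (8 raised, 9 lowered), the B cell covariate and only the groups compared each gave 5 raised, the plasma cell covariate 0 and 0, and the limit of 0.8 gave 3 and 3. The cause was not tested, except that the limit of 0.8 is stricter by construction. A fit of only the groups compared is not always stricter, since in the further lists it also gave more calls in places. The plasma cell covariate was chosen after seeing the data.

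Leaving out 1 library gave 0 to 1 raised and 1 to 6 lowered with ZnSO4 in PBS mice (the lowest without water + PBS mouse 1 or ZnSO4 + PBS mouse 1), 3 to 6 raised and 2 to 5 lowered with Dex in water mice (the lowest lowered count without water + Dex mouse 3), 0 to 1 raised and 0 lowered with ZnSO4 in Dex mice, 4 to 5 raised and 2 to 4 lowered with Dex in ZnSO4 mice, and 5 to 8 raised (5 without water + PBS mouse 1) and 3 to 9 lowered (3 without ZnSO4 + Dex mouse 1 or 3) with both treatments. No member had an adjusted interaction p under 0.05 in any of these fits.

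The replicate number as a block gave 3 lowered with ZnSO4 in PBS mice and 0 raised with ZnSO4 in Dex mice, and moved no other count of members by more than 1.5 times. The numbers do not pair the mice.

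In the further lists, the plasma cell covariate left no synthetase, other carrier or other eIF2 gene called with ZnSO4 in either setting. Xbp1 is one of the plasma cell markers in that covariate and also one of the other eIF2 genes. Upper-quartile factors gave 4 in place of 7 lowered synthetases with both treatments, the filter of 10 counts in every library gave 5 in place of 2 lowered eIF2 genes with ZnSO4 in PBS mice, and no filter or only the groups compared gave 1 in place of 3 with Dex in ZnSO4 mice. Counts of 1 in these lists moved to between 0 and 4.

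Depth limited Slc7a3 and Gdf15, which were not tested, and Chac1, which had 5 to 9 reads per library with both treatments.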
